A study of Mus musculus with 24 samples.

Results

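The Trim genes form a large family of ubiquitin ligases, and 58 of them were followed across 24 arrays of mouse epithelial lines and macrophages. A gene was a member where its platform symbol was Trim with a number and an optional letter and its probe set carried that symbol alone. This gave 58 of the 19938 genes analysed, each with 1 probe set. The 6 probe sets that carry a Trim symbol among several were left out, and Trim5, Trim30b, Trim30c and Trim34b had no probe set with their symbol alone. The arrays fell into 6 groups of 4. C57epi.1 cells, a C57BL/6 mouse line of upper reproductive tract origin, were given inflammatory supernatant or kept in media. Bm12.4 cells, a line of like origin taken in B6(C)-H2-Ab1bm12/KhEgJ mice, were given supernatant or media, as were macrophages grown with GM-CSF from femur bone marrow of C57BL/6 mice. The supernatant was medium conditioned by a CD4 T cell clone specific for Chlamydia in contact with infected epithelial cells. It made up 33% of the volume, and its interferon-gamma was brought to 4 ng/ml. The control was plain RPMI media, so the supernatant's interferon-gamma and its other contents were tested as 1 mixture. Each epithelial group comes from a single line per strain, and the strain and the line cannot be told apart.

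Trim proteins carry a RING, B-box and coiled-coil stretch, and most of them attach ubiquitin to other proteins through the RING. Many are themselves induced by interferons, and several tune the receptors and kinases that lead to interferon and NF-kappaB signalling or bind incoming viruses. In the mouse, the genes related to human TRIM5 lie side by side on chromosome 7 and have been duplicated there. Other members serve as chromatin cofactors, in muscle, in neurons or in the germline, and are known chiefly for those roles.

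The labels do not say whether replicates were separate cultures, so p-values cover only the spread between these arrays, which may be technical. Each array measured the RNA of a whole culture, so a change in every cell and a change in some of the cells cannot be told apart. The 7 macrophage markers averaged 12.21 to 12.42 on the log2 scale in macrophage arrays, against 4.13 to 4.60 in the arrays of the lines. Of the 5 epithelial markers, Krt19 averaged 11.32 to 12.12 in the lines, against 4.13 to 4.32 in macrophages, while Epcam averaged 3.67 to 3.75 there, against 3.71 to 3.79. Cdh1 averaged 4.30 to 4.50 in the lines, against 6.65 to 7.25 in macrophages. Krt8 averaged 9.03 to 9.25 in C57epi.1 and 5.67 to 5.78 in Bm12.4, against 5.39 to 5.62 in macrophages, and Krt18 averaged 4.73 to 5.62 in the lines, against 4.92 to 5.02. The 5 stromal markers averaged 10.32 to 12.18 in the lines, against 5.51 to 6.16 in macrophages. The 4 measured T cell markers averaged 3.83 to 4.40 in every array. Of the 3 dendritic cell markers, Clec9a averaged 7.15 to 7.92 in macrophages, against 3.03 to 3.20 in the lines. Flt3 averaged 4.56 to 4.72 in macrophages, against 4.34 to 4.57, and Zbtb46 averaged 5.56 to 5.63, against 5.61 to 6.16. In media, replicates 3 and 4 of both lines stood apart from replicates 1 and 2. The 4 measured markers of dividing cells averaged 10.26, 10.11, 7.58 and 7.87 in Bm12.4 media replicates 1 to 4 and 10.42, 10.32, 9.52 and 9.49 in those of C57epi.1. Some interferon pathway genes split as well. Stat2 measured 6.69, 7.04, 9.07 and 9.46 in Bm12.4 media and 7.41, 7.11, 8.13 and 8.02 in C57epi.1 media. Irf9 measured 6.19, 5.71, 8.11 and 8.13, and 5.37, 5.34, 6.85 and 6.69. Herc6 measured 5.86, 5.70, 6.75 and 6.97, but 5.03, 5.28, 4.49 and 4.50 in C57epi.1 media. Where a called difference printed for these media arrays was over 1.5 times larger within one pair of replicates than within the other, both values are given beside it. The part of cell division or of interferon genes in it was not tested.

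The members that moved together are shown first by their promoters. RefSeq promoters, each 300 bases from 250 before to 50 after a transcription start of GRCm38.p6, were at hand for 46 of the 58 members. The core of the interferon-stimulated response element (ISRE), which is TTTC, 2 bases of any kind and TTTC again on either strand, stood in the promoters of 8 members, 17.4% of the 46, against 3.99% of all genes. The gamma-activated site, TTCNNNGAA on either strand, stood in those of 5 members, 10.9%, against 9.55% of all genes. No member had both. Of the 9 Trim genes called higher with supernatant in all 3 kinds of cell, 7 held the response element core. The other two, Trim25 and Trim56, held neither motif in this window. Among the remaining 37 members with a promoter, Trim2 alone held the core. Trim15, Trim31, Trim38, Trim45 and Trim46 held the gamma-activated site, and of these Trim46 was called higher in C57epi.1 and the others in none of the kinds. A match describes the letters of the window and shows no binding.

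Below are 110 bases of each of the 7 promoters, on the gene's strand, with the core in capitals. The first 6 windows run from 60 bases before to 50 after the start: Trim12a at chr7:104315446-104315555, Trim12c at chr7:104353300-104353409, Trim30a at chr7:104465144-104465253 and Trim30d at chr7:104507800-104507909, all on the minus strand, Trim34a at chr7:104244397-104244506 on the plus strand and Trim21 at chr7:102565433-102565542 on the minus strand. The Trim26 window lies further out, from 200 to 91 bases before the start, at chr17:36836946-36837055 on the plus strand. Trim30a has 2 RefSeq starts, and the window is that of the upstream one. They are shown because the core sits close to the start in the first 6 windows and further off in Trim26.
Trim12a: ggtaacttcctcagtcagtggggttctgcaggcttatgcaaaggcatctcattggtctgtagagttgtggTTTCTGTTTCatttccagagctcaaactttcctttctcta
Trim12c: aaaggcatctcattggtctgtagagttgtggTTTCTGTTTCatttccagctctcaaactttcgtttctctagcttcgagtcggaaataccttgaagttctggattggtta
Trim30a: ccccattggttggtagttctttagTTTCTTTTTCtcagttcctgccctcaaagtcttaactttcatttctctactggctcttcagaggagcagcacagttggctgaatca
Trim30d: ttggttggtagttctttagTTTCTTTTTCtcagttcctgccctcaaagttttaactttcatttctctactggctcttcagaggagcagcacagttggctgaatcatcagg
Trim34a: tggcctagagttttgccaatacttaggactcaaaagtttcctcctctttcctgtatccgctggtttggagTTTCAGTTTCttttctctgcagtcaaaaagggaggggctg
Trim21: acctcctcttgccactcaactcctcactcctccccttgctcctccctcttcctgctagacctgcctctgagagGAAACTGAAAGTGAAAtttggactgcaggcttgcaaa
Trim26: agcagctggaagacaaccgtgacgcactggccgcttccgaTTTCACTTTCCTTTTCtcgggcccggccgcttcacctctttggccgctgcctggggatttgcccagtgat
Trim12a and Trim12c hold the same core letters as each other, and so do Trim30a and Trim30d. In Trim21 the core lies on the opposite strand, where it reads as 2 overlapping matches, and Trim26 also holds 2 that overlap.

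**Figure D1:**
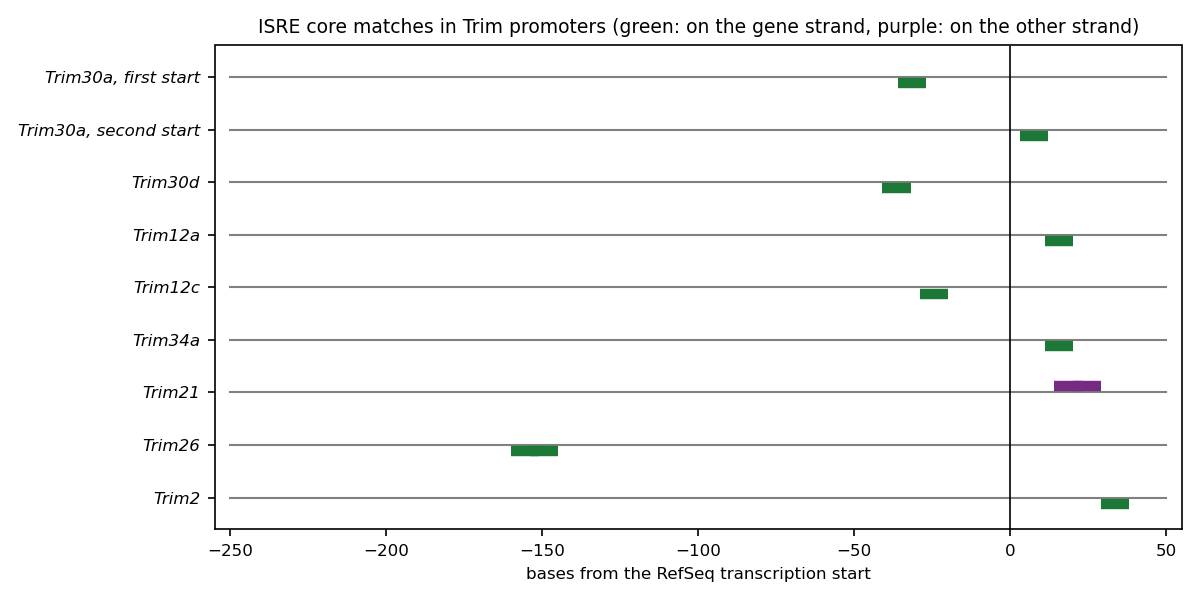
Positions of the interferon-stimulated response element core in the promoters of the 8 Trim genes that hold it, in bases from the RefSeq start (x axis), with 1 line per promoter. Matches lie between -41 and 38 in all of them except Trim26, where they lie between -160 and -145.

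The supernatant raised more Trim genes than it lowered in each kind of cell. In C57epi.1 cells 17 of the 58 members were called higher and 4 lower (limma, adjusted p under 0.05 over all genes), against 8.85% of all genes higher and 10.4% lower. In Bm12.4 cells 12 were higher, against 4.54% of all genes, and 0 were lower, against 2.7%. At an unadjusted p under 0.05, 6 members were lower there. In macrophages 11 were higher and 3 lower, against 6.13% and 6.31% of all genes. A rise of at least 2-fold was called for 7, 8 and 6 members in these kinds, against 2.56%, 1.74% and 2.1% of all genes, and a fall of that size for none of the 58 in any kind (limma), against 1.29%, 0.12% and 1.08% of all genes. Without regard to size, all 4 treated arrays lay above all 4 media arrays for 17, 13 and 14 members, against 9.2%, 5.18% and 9.33% of all genes. The median difference of all 58 members was -0.03, -0.04 and 0.06, next to -0.05, -0.05 and -0.02 over all genes.

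The same 9 genes were called higher in all 3 kinds: Trim12a, Trim12c, Trim21, Trim25, Trim26, Trim30a, Trim30d, Trim34a and Trim56. They made up 9 of the 17 rises in C57epi.1, 9 of the 12 in Bm12.4 and 9 of the 11 in macrophages. Trim14 was called higher in both lines. A further 7 were called in C57epi.1 alone, 2 in Bm12.4 alone and 2 in macrophages alone, which by itself does not show that the kinds differ. None of the falls was called in all 3 kinds, and Trim2 was called lower in C57epi.1 and in macrophages.

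**Figure D2:**
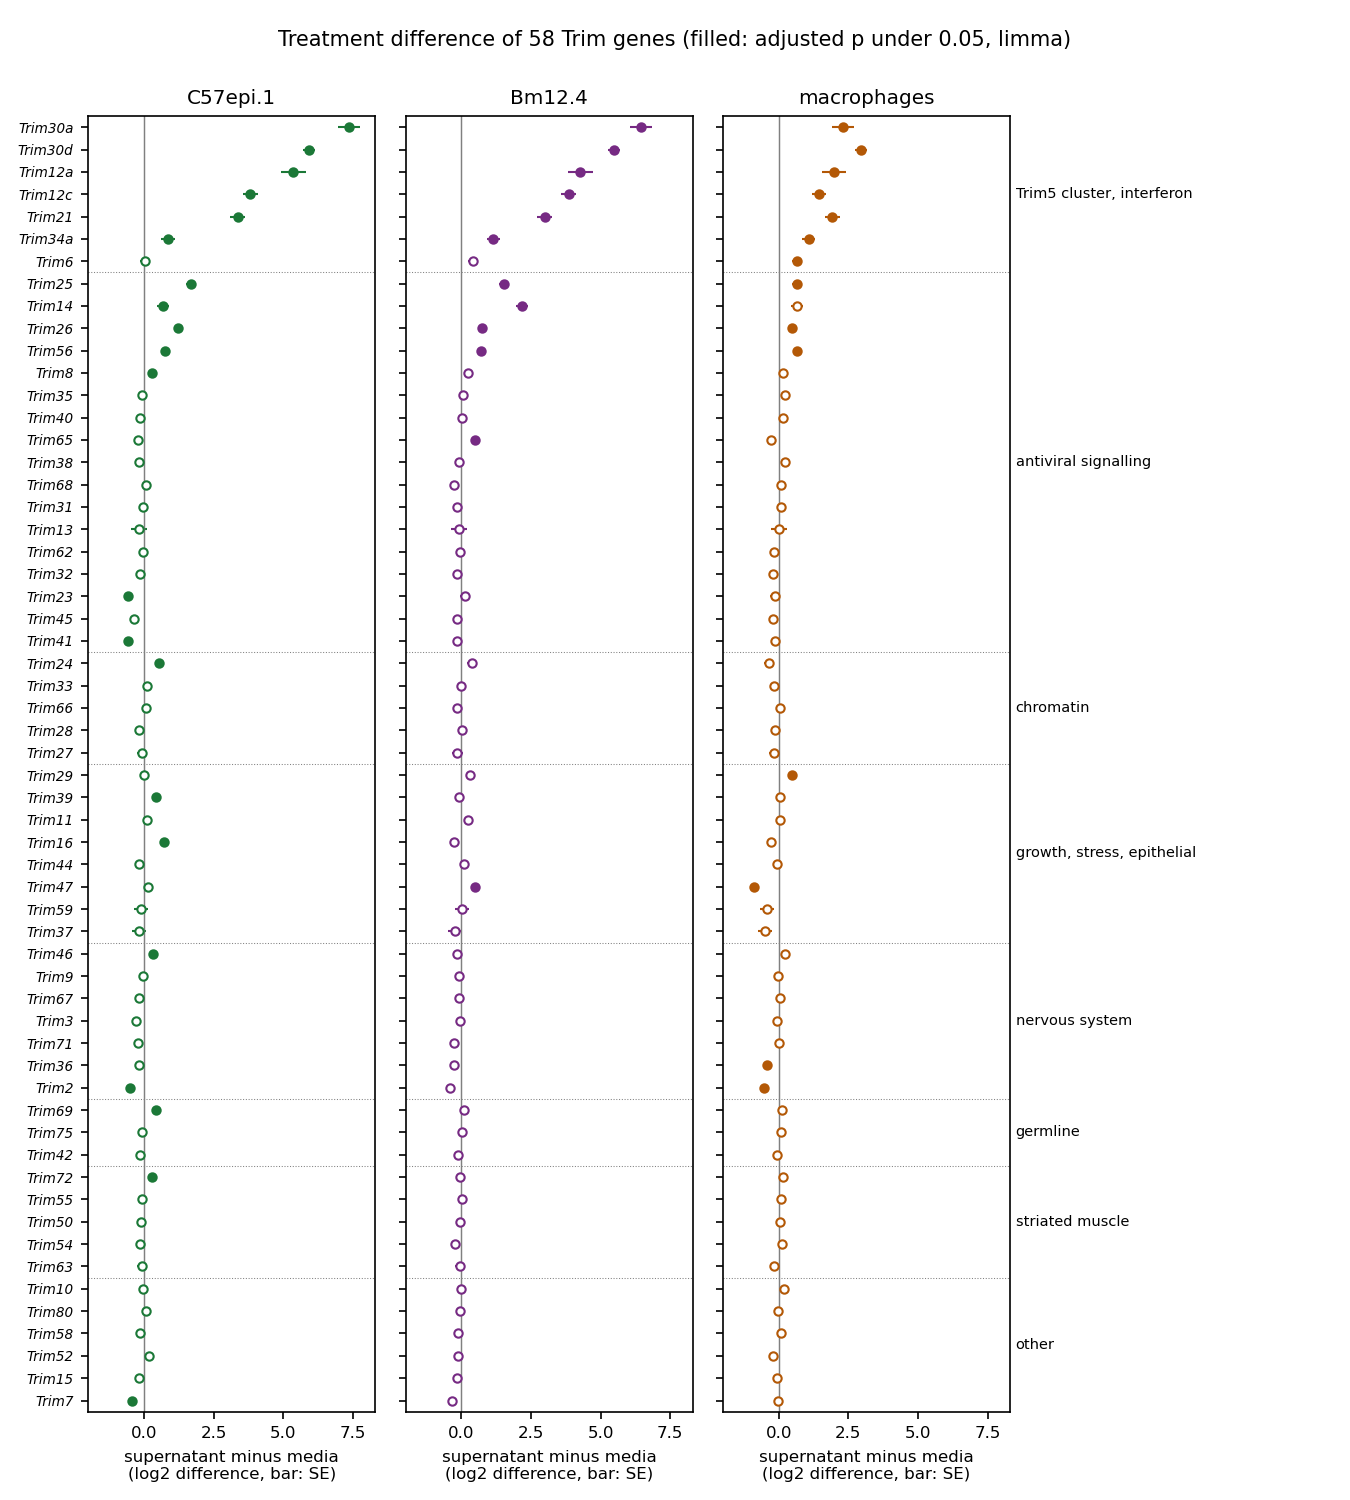
Supernatant minus media (x axis, log2 difference with its SE) for the 58 Trim genes, 1 row per gene grouped by role, in C57epi.1, Bm12.4 and macrophages from left to right. Filled points passed the test, and the large differences sit in the top group, up to 7.35 for Trim30a in C57epi.1.

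The Trim5 cluster and its interferon-inducible relatives changed most. Of the 7 measured of 11 listed genes, 6 rose in each line and 7 in macrophages. Over all genes 8.85%, 4.54% and 6.13% rose in C57epi.1, Bm12.4 and macrophages. The median difference of the list was 3.82 in C57epi.1, 3.85 in Bm12.4 cells and 1.92 in macrophages. All 7 lie on chromosome 7, and Trim6, Trim34a, Trim12a, Trim12c, Trim30a and Trim30d follow one another there in that order among the members. The list was written with earlier results of these data known, and neighbours as alike as these can share array signal. Trim30a (probe set 10566358), which in mouse cells dampens NF-kappaB signalling, measured 11.73, 11.39, 11.26 and 11.37 in the C57epi.1 supernatant arrays and 4.02, 3.73, 4.24 and 4.38 in the media arrays. In Bm12.4 it measured 11.69, 11.95, 12.08 and 11.89 with supernatant and 4.24, 4.17, 6.70 and 6.76 in media. In macrophages it measured 11.91, 11.96, 12.16 and 12.11 with supernatant and 9.56, 9.75, 9.92 and 9.68 in media. The groups did not overlap in any kind, and the media arrays of the lines lay far below those of macrophages. The differences were 7.35, 6.44 and 2.31 in C57epi.1, Bm12.4 and macrophages (SE 0.40 each), which are 163-fold, 86.5-fold and 4.95-fold (limma, adjusted p = 4.35e-12, 5.47e-11 and 0.00025). In Bm12.4 the difference was 7.62 within replicates 1 and 2 and 5.26 within replicates 3 and 4.

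Trim30d (probe set 10566366), the neighbour of Trim30a, showed 9.24, 8.62, 8.76 and 8.72 with supernatant in C57epi.1 cells and 2.67, 3.10, 2.79 and 3.05 in media. Its Bm12.4 arrays held 8.56, 8.99, 9.40 and 8.91 with supernatant and 3.12, 2.97, 3.69 and 4.12 in media. Macrophages held 9.78, 9.84, 10.15 and 10.08 with supernatant, against 6.82, 7.06, 7.17 and 7.04 in media. Again treated and media arrays did not overlap in any kind, and both lines were far lower in media than macrophages were. It rose by 5.93 in C57epi.1 (61.1-fold), 5.49 in Bm12.4 cells (44.9-fold) and 2.94 in macrophages (7.67-fold), with an SE of 0.21 each (limma, adjusted p = 1.25e-15, 6.1e-15 and 3.03e-10). Its media means of 2.90 in C57epi.1 and 3.48 in Bm12.4 are low levels. So are those of Trim30a, Trim12a and Trim12c in C57epi.1 media, at 4.09, 3.18 and 3.49. Whether such levels stand above background signal was not tested, so the size of these folds is uncertain.

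Trim12a and Trim12c, mouse relatives of human TRIM5, behaved alike. Trim12a (probe set 10566326) had 8.96, 8.44, 8.35 and 8.41 in C57epi.1 supernatant arrays, against 3.10, 2.80, 3.42 and 3.39 in media. In Bm12.4 it had 9.66, 10.22, 10.30 and 10.28 with supernatant, against 4.33, 4.68, 7.28 and 7.11 in media. In macrophages it had 10.11, 10.15, 10.30 and 10.02 with supernatant, against 8.15, 8.18, 8.20 and 8.10 in media. The treated arrays were above the media arrays throughout, and the Bm12.4 media arrays split by replicate pair. The rise was 5.36 in C57epi.1, 4.27 in Bm12.4 cells and 1.99 in macrophages (SE 0.44 each), that is 41.1-fold, 19.2-fold and 3.97-fold (limma, adjusted p = 4.34e-09, 2.38e-07 and 0.00262). Within replicates 1 and 2 of Bm12.4 it was 5.44, and within replicates 3 and 4 it was 3.10, less by more than 1.5 times. Trim12c (probe set 10566346), which promotes interferon and NF-kappaB signalling in mouse cells, rose by 3.82 in C57epi.1, 3.85 in Bm12.4 cells and 1.45 in macrophages (SE 0.26 each, limma, adjusted p = 1.5e-10, 1.59e-10 and 0.000281). Its means were 7.31 ± 0.19 and 3.49 ± 0.30 in C57epi.1 with supernatant and in media, 9.01 ± 0.16 and 5.16 ± 0.82 in Bm12.4, and 8.70 ± 0.28 and 7.25 ± 0.08 in macrophages (SD, n = 4). In Bm12.4 the rise was 4.47 within replicates 1 and 2 and 3.22 within the other pair.

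Trim21, a cytosolic antibody receptor that marks antibody-coated pathogens for the proteasome, measured 9.78, 9.26, 9.17 and 9.35 in C57epi.1 with supernatant and 5.85, 5.58, 6.21 and 6.44 in media. Bm12.4 cells had 9.58, 9.96, 9.89 and 9.98 with supernatant and 6.20, 6.08, 7.59 and 7.60 in media. Macrophages had 9.19, 9.16, 9.50 and 9.27 with supernatant and 7.29, 7.31, 7.40 and 7.43 in media. Treated levels were close in the 3 kinds, and media levels were not. The rise was 3.37 (10.3-fold), 2.99 (7.92-fold) and 1.92 (3.79-fold) in C57epi.1, Bm12.4 and macrophages (SE 0.27 each, limma, adjusted p = 2.7e-09, 2.43e-08 and 1.31e-05), and in Bm12.4 it was 3.63 within replicates 1 and 2 and 2.34 within replicates 3 and 4. Trim34a, a gene of the Trim5 cluster, rose by 0.86 in C57epi.1, 1.15 in Bm12.4 cells and 1.07 in macrophages (SE 0.24 each, limma, adjusted p = 0.0145, 0.0033 and 0.00376). Its C57epi.1 call was lost without media replicate 1 (adjusted p = 0.0531), and its Bm12.4 call was lost in a model of those 2 groups only (adjusted p = 0.123). The Bm12.4 difference was 1.64 within replicates 1 and 2 and 0.66 within replicates 3 and 4. Trim6, a ligase of the cluster that supports interferon signalling through Ikbke, differed by 0.05 in C57epi.1 and 0.43 in Bm12.4, neither passing the test (limma, adjusted p = 0.922 and 0.198), and by 0.65 in macrophages (SE 0.18, adjusted p = 0.0197). The macrophage call was lost without supernatant replicate 2 or 3 or media replicate 1 (adjusted p = 0.0917, 0.0538 and 0.0806). In that kind all 4 treated arrays, 4.81 to 5.53, lay above the media arrays, 4.25 to 4.69.

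**Figure D3:**
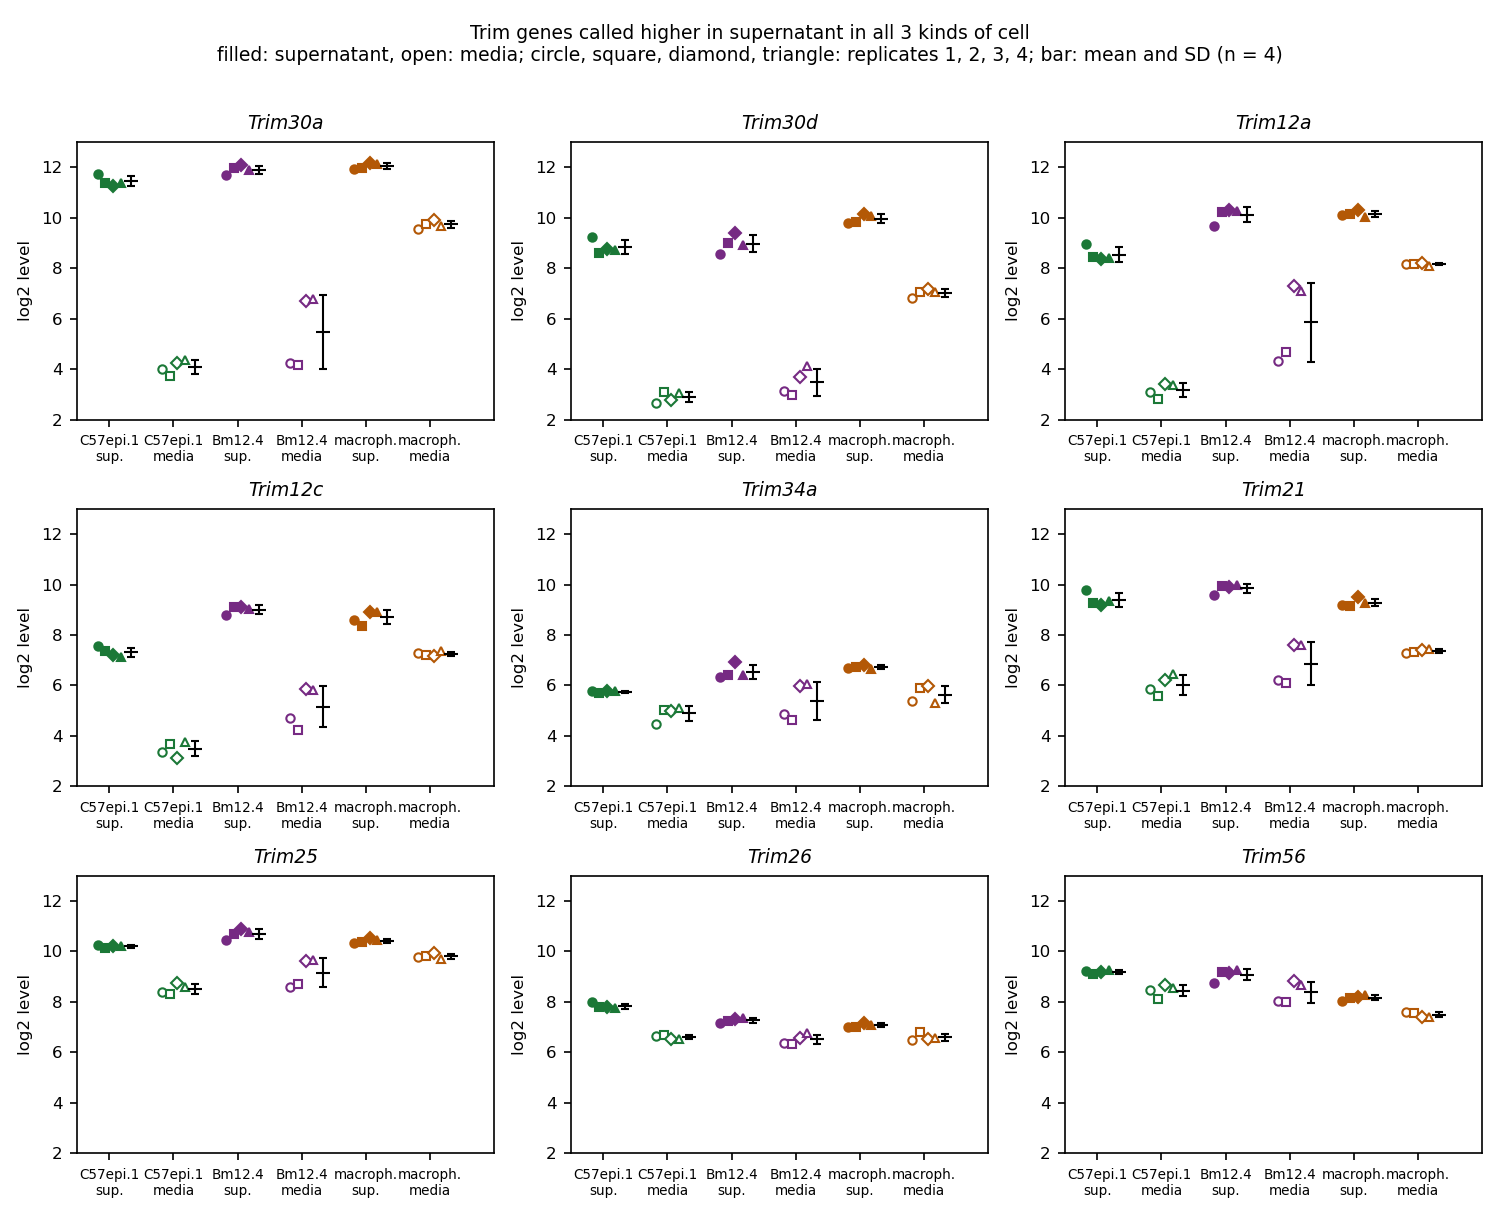
Log2 levels (y axis) of the 9 Trim genes called higher with supernatant in all 3 kinds of cell, by group (x axis), with each array as a point and the mean with its SD beside it. Supernatant arrays are filled and media arrays open, and media arrays lie lower in the lines than in macrophages for Trim30a, Trim30d, Trim12a and Trim12c.

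Of the 17 regulators of antiviral and inflammatory signalling, 5 rose in C57epi.1, 5 in Bm12.4 cells and 3 in macrophages. The shares of all genes that rose were 8.85%, 4.54% and 6.13%. Of the regulators 2 fell in C57epi.1, against 10.4% of all genes. No fall among them was called in Bm12.4 or macrophages, against 2.7% and 6.31% of all genes (limma, with 0 and 2 falls at an unadjusted p under 0.05). Their median differences were -0.05, 0.02 and 0.09, close to those over all genes. Trim25, the ligase that ubiquitinates the RNA sensor RIG-I, read 10.26, 10.12, 10.21 and 10.22 with supernatant in C57epi.1 and 8.38, 8.33, 8.74 and 8.59 in media. It read 10.45, 10.68, 10.88 and 10.76 with supernatant in Bm12.4 and 8.60, 8.72, 9.61 and 9.66 in media. In macrophages it read 10.35, 10.38, 10.54 and 10.45 with supernatant and 9.77, 9.81, 9.92 and 9.68 in media. It was already high without treatment, and treated and media arrays did not overlap in any kind. It rose by 1.69, 1.55 and 0.64 in C57epi.1, Bm12.4 and macrophages (SE 0.18 each, limma, adjusted p = 2.23e-07, 1.22e-06 and 0.0166), and the last call was lost without macrophage media replicate 4 (adjusted p = 0.053). Bm12.4 replicates 1 and 2 alone gave 1.90, and replicates 3 and 4 gave 1.18.

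Trim14 is a mitochondrial adaptor without a RING that helps the RNA sensing protein Mavs signal. It stood at 4.62, 5.10, 5.12 and 5.45 in C57epi.1 with supernatant and at 4.33, 4.24, 4.49 and 4.50 in media. It stood at 7.41, 7.65, 8.14 and 7.80 in Bm12.4 with supernatant and at 4.99, 5.02, 6.11 and 6.13 in media. Macrophages held 10.16, 10.19, 10.48 and 10.30 with supernatant and 9.72, 9.69, 9.64 and 9.44 in media. So the treated C57epi.1 arrays overlapped the untreated Bm12.4 arrays, and both lines stayed below macrophages. The rise was 2.19 in Bm12.4 (4.56-fold, SE 0.22, limma, adjusted p = 2.13e-07), with 2.52 within replicates 1 and 2 and 1.85 within the other pair, and 0.68 in C57epi.1 (SE 0.22, adjusted p = 0.0329). The C57epi.1 call was lost when any 1 of 7 of its 8 arrays was left out, all but supernatant replicate 1 (adjusted p = 0.0525 to 0.121). In macrophages the difference of 0.66 missed the threshold (adjusted p = 0.0553), although the treated arrays all lay above the media arrays, and it passed without C57epi.1 supernatant replicate 1 or any of the Bm12.4 media arrays (adjusted p = 0.0325 to 0.0447).

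Trim26 and Trim56 rose in every kind by smaller amounts. Trim26, which acts on the transcription factor Irf3, gained 1.24 in C57epi.1, 0.76 in Bm12.4 cells and 0.48 in macrophages (SE 0.091 each, limma, adjusted p = 9.02e-10, 2.9e-06 and 0.000716). Its media means were nearly equal, 6.60 ± 0.08, 6.51 ± 0.19 and 6.59 ± 0.14 in C57epi.1, Bm12.4 and macrophages, below supernatant means of 7.83 ± 0.10, 7.27 ± 0.09 and 7.07 ± 0.08 (SD, n = 4). Trim56, which supports the DNA sensing protein Sting, gained 0.75, 0.70 and 0.67 (SE 0.15 each, limma, adjusted p = 0.00105, 0.00441 and 0.00383). Its Bm12.4 arrays overlapped, at 8.73 to 9.25 with supernatant and up to 8.81 in media, and that call was lost in a model of the 2 groups only (adjusted p = 0.136). Within Bm12.4 it differed by 0.94 in replicates 1 and 2 and by 0.46 in replicates 3 and 4. Trim65, which ubiquitinates the RNA sensor Mda5, rose by 0.49 in Bm12.4 (SE 0.094, limma, adjusted p = 0.0014), while it differed by -0.22 in C57epi.1 and -0.27 in macrophages (adjusted p = 0.128 and 0.0711). The macrophage difference passed without C57epi.1 media replicate 1 (adjusted p = 0.0396).

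The remaining regulators on the list were named after their values were seen. Trim8, which promotes NF-kappaB signalling, rose by 0.31 in C57epi.1 (limma, adjusted p = 0.00457). Trim23 and Trim41, which act in antiviral signalling, fell by 0.56 and 0.57 there (adjusted p = 0.0139 and 0.00958), with overlapping arrays for both. Replicates 1 and 2 gave -0.32 for Trim23 and -0.38 for Trim41, and replicates 3 and 4 gave -0.80 and -0.76. The Trim23 call was lost without supernatant replicate 3 or media replicate 3 or 4 (adjusted p = 0.0547, 0.0553 and 0.0716), and the Trim41 call without media replicate 3 (adjusted p = 0.0537). Trim35, with group means of 9.70 to 10.12, and Trim38, with 3.42 to 3.63, passed the test in no kind (limma). Trim13, Trim31, Trim32, Trim40, Trim45, Trim62 and Trim68 also passed in none.

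The members with other roles moved less. Of the 8 genes for growth, stress and epithelial functions, 2 rose in C57epi.1, 1 rose in Bm12.4, and 1 rose and 1 fell in macrophages. Over all genes 8.85%, 4.54% and 6.13% rose in these kinds, and 10.4%, 2.7% and 6.31% fell. Trim16, a RING-less member that works in the autophagy of damaged membranes, had 8.01, 8.21, 8.21 and 8.28 in C57epi.1 with supernatant and 7.43, 7.33, 7.52 and 7.55 in media. It rose there by 0.72 (SE 0.12, limma, adjusted p = 9.21e-05), and it differed by -0.26 in both Bm12.4 and macrophages (adjusted p = 0.232 and 0.195). Trim47, first described in human brain tumours, ran the other way in macrophages, with 5.87, 5.79, 5.62 and 5.78 with supernatant and 6.74, 6.53, 6.67 and 6.71 in media. It fell by 0.90 in macrophages (SE 0.099, limma, adjusted p = 5.06e-07), rose by 0.50 in Bm12.4 (adjusted p = 0.00169, with 0.38 and 0.61 within the pairs) and differed by 0.16 in C57epi.1 (adjusted p = 0.317). Trim29, a RING-less member that restrains innate responses in mouse lung macrophages, rose by 0.47 in macrophages (SE 0.13, limma, adjusted p = 0.0133), a call lost without supernatant replicate 2 (adjusted p = 0.058). Trim39, a regulator of the cell cycle, rose by 0.43 in C57epi.1 (adjusted p = 0.0187), which was lost without supernatant replicate 1 or media replicate 3 or 4 (adjusted p = 0.0803, 0.0605 and 0.078). Trim59, tied to proliferation, and Trim37, tied to growth, were called in no kind in the fit over 24 arrays. In replicates 1 and 2 alone Trim37 was lower by 0.54, 0.58 and 0.59 in C57epi.1, Bm12.4 and macrophages (limma, adjusted p = 0.0294, 0.0241 and 0.0161). Replicates 3 and 4 gave 0.20, 0.14 and -0.36, with no call, and a model of the macrophage groups alone gave -0.48 (adjusted p = 0.00352). Trim59 in Bm12.4 differed by -0.55 in replicates 1 and 2 and by 0.63 in replicates 3 and 4, called in opposite directions (adjusted p = 0.0489 and 0.0131). In macrophages it differed by -0.22 and -0.62 in these pairs, of which that in replicates 3 and 4 passed (adjusted p = 0.016).

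Among the 5 chromatin and transcription cofactors, 1 passed the test in any kind, with a rise in C57epi.1, where 8.85% of all genes rose. Trim24, a nuclear receptor cofactor, had 9.75, 9.87, 9.67 and 9.67 in C57epi.1 with supernatant and 9.06, 8.74, 9.51 and 9.43 in media. The rise was 0.56 (SE 0.17, limma, adjusted p = 0.0209), and it was 0.91 within replicates 1 and 2 and 0.20 within replicates 3 and 4. The call was lost without supernatant replicate 2 or media replicate 1 or 2 (adjusted p = 0.0647, 0.0521 and 0.0848). In Bm12.4 the difference was 0.38 and in macrophages -0.34, and neither passed over 24 arrays (adjusted p = 0.217 and 0.25). In replicates 1 and 2 alone, Trim24 was called higher in Bm12.4, at 0.78 (limma, adjusted p = 0.00256). In macrophages it was called lower in a model of those groups only (adjusted p = 0.00964). Replicates 3 and 4 alone also gave a macrophage call, at -0.41 (adjusted p = 0.0249). Trim27, Trim28, Trim33 and Trim66 passed in none of the kinds.

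Of the 7 members for the nervous system and development, 1 rose and 1 fell in C57epi.1 and 2 fell in macrophages. Over all genes 8.85% rose and 10.4% fell in C57epi.1, and 6.31% fell in macrophages. Trim2, a ligase of neurofilaments and the member whose promoter held the response element core without a rise, fell by 0.48 in C57epi.1 and by 0.52 in macrophages (SE 0.15 each, limma, adjusted p = 0.0287 and 0.024). The C57epi.1 call was lost without supernatant replicate 1, 3 or 4 or media replicate 3 or 4 (adjusted p = 0.0513 to 0.1), and the macrophage call without supernatant replicate 1, 2 or 4 or media replicate 1 or 2 (adjusted p = 0.0608 to 0.0971). The C57epi.1 difference was -0.32 within replicates 1 and 2 and -0.64 within replicates 3 and 4, and the macrophage difference was -0.94 within replicates 1 and 2 and -0.10 within replicates 3 and 4. In Bm12.4 it differed by -0.41 (adjusted p = 0.129). Trim36, which acts on the cytoskeleton in frog embryos, fell by 0.41 in macrophages (SE 0.12, limma, adjusted p = 0.0192), a call lost without supernatant replicate 1 or media replicate 1, 2 or 4 (adjusted p = 0.0578 to 0.0835). It was -0.58 within replicates 1 and 2 and -0.24 within replicates 3 and 4. Trim46, Trim69, Trim72 and Trim7 were named after their values in C57epi.1 were seen. Trim46 rose by 0.34 (limma, adjusted p = 0.0251), a call lost without any of 4 arrays, supernatant replicate 2 or 3 and media replicate 1 or 3 (adjusted p = 0.0522 to 0.126), and gave 0.22 and 0.45 within the pairs. Trim69 of the germline list rose by 0.45 (adjusted p = 0.00449), with 0.27 and 0.62 within the pairs, and Trim72 of the striated muscle list rose by 0.29 (adjusted p = 0.0322), with 0.35 and 0.22. The Trim72 call was lost without supernatant replicate 1, 2 or 3 or media replicate 1 or 3 (adjusted p = 0.0569 to 0.109). Trim7, of no list, fell by 0.44 (limma, adjusted p = 0.0091). These are low levels: every group mean was under 5 for Trim69, Trim72 and Trim7 and under 6 for Trim46.

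The rest of the germline and muscle lists and the other members of no list passed in none of the kinds. In Bm12.4 and macrophages the 3 germline genes gave 0 calls at an unadjusted p under 0.05 too (limma), and the 5 genes of the muscle list, which also holds Trim50 of the stomach, gave 1, Trim54 in Bm12.4.

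The responses themselves were compared next. The response of the lines, as the mean of both, was set against that of macrophages. It was larger for 11 of the 58 members and smaller for 0, against 4.27% and 3.81% of all genes, with 4 members smaller at an unadjusted p under 0.05 (limma). Of the 7 genes of the Trim5 cluster list, 5 were among the 11. Trim30a differed most, with a rise of 6.89 in the lines and 2.31 in macrophages, a difference of 4.58 (SE 0.49, limma, adjusted p = 9.16e-07). Trim12a followed with 2.83 (SE 0.53, adjusted p = 0.00111), Trim30d with 2.77 (SE 0.25, adjusted p = 7.3e-08), Trim12c with 2.39 (SE 0.31, adjusted p = 1.55e-05) and Trim21 with 1.26 (SE 0.33, adjusted p = 0.0165). All 5 had lower media means in each line than in macrophages. Those of Trim30a, Trim30d, Trim12a and Trim12c were under 5 in C57epi.1, so the size of their response differences is uncertain. Within replicates 1 and 2 the response differences were 5.37 for Trim30a, 3.63 for Trim12a, 2.98 for Trim12c and 1.84 for Trim21. Within replicates 3 and 4 they were 3.80, 2.02, 1.80 and 0.67 for the same genes, smaller by more than 1.5 times for all but Trim30a. Outside that list, Trim47 differed by 1.23 (SE 0.12, limma, adjusted p = 2.62e-07), having fallen in macrophages, and Trim25 by 0.98 (SE 0.21, adjusted p = 0.00414). Smaller differences were 0.80 for Trim24, 0.52 for Trim26, 0.49 for Trim16 and 0.40 for Trim65 (limma, adjusted p = 0.0142, 0.00349, 0.0362 and 0.0315). Within replicates 1 and 2 the difference was 1.30 for Trim25, 1.11 for Trim24, 0.66 for Trim26, 0.78 for Trim16 and 0.32 for Trim65, and within replicates 3 and 4 it was 0.67, 0.50, 0.38, 0.18 and 0.49. The Trim16 difference was lost without any 1 of 12 arrays (adjusted p = 0.0522 to 0.11), which were C57epi.1 supernatant replicates 2, 3 and 4, Bm12.4 supernatant replicates 1 and 2, Bm12.4 media replicate 3, and macrophage supernatant and media replicates 1, 2 and 4. The Trim65 difference was lost without macrophage supernatant replicate 2 or 4 or media replicate 1 or 3 (adjusted p = 0.053 to 0.0834). Trim14, at 0.78 (adjusted p = 0.0898), passed without Bm12.4 media replicate 3 or 4 (adjusted p = 0.0365 and 0.0341).

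**Figure D4:**
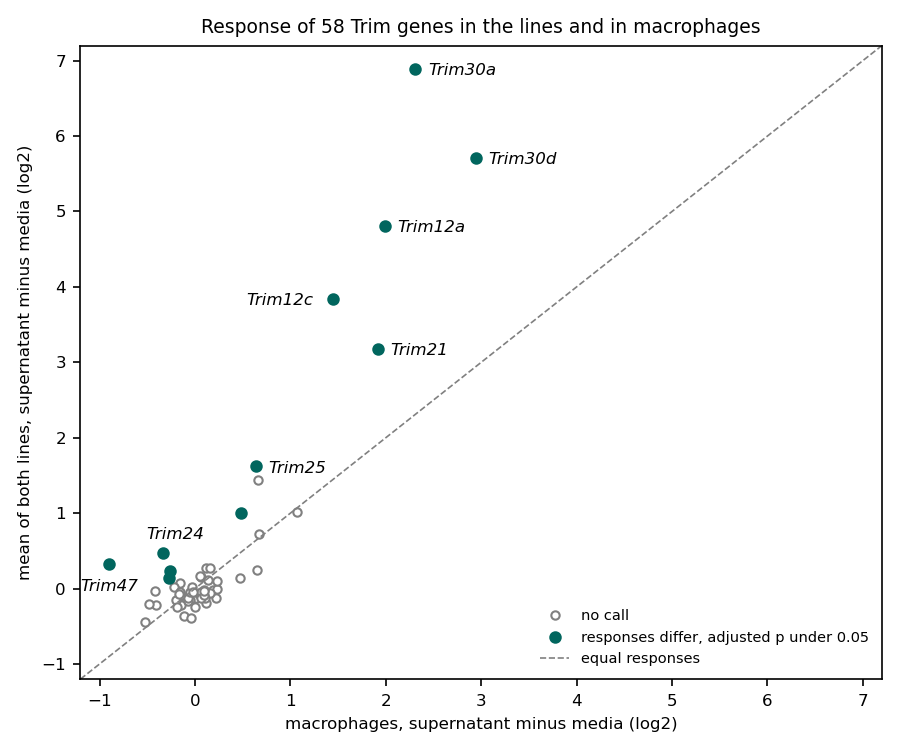
Supernatant minus media (log2) of the 58 Trim genes, as the mean of both lines (y axis) against macrophages (x axis), with the line of equal responses dashed. Filled points are the 11 genes whose responses differed, all above the line, with Trim30a at 6.89 in the lines and 2.31 in macrophages.

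The lines differed from each other in the response of 4 members, 2 larger in C57epi.1 and 2 smaller, against 1.99% and 2.04% of all genes. Trim14 rose by 0.68 in C57epi.1 and by 2.19 in Bm12.4, a difference of -1.51 (SE 0.31, limma, adjusted p = 0.00687), which was -1.95 within replicates 1 and 2 and -1.06 within replicates 3 and 4. Trim65 differed by -0.70 (SE 0.13, adjusted p = 0.00333) and Trim16 by 0.98 (SE 0.16, adjusted p = 0.00113). Trim26 differed by 0.47 (SE 0.13, adjusted p = 0.0405), but its call was lost without any of 11 arrays of these lines, which were all the supernatant arrays except C57epi.1 replicate 4 and media replicates 3 and 4 of both lines (adjusted p = 0.0524 to 0.0888). Among the 7 genes of the Trim5 cluster list, no response difference between the lines was called over 24 arrays, with 0 at an unadjusted p under 0.05 too (limma). In replicates 3 and 4 alone it was called for 3 of them, at 1.88 for Trim12a, 1.75 for Trim30a and 0.60 for Trim21 (adjusted p = 1.76e-05, 3.37e-05 and 0.0406). Replicates 1 and 2 gave 0.32, 0.07 and 0.18 for these genes, with no call. Trim39 passed without Bm12.4 supernatant replicate 1 (adjusted p = 0.0273).

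Without treatment, 15 members were higher and 14 lower in the lines than in macrophages, against 24.7% and 22.4% of all genes, so the share that differed was close to the background. Of the 7 genes of the Trim5 cluster list, which includes Trim21, 5 were lower in the lines and 0 higher, with a median difference of -2.92. In media, Trim30a was lower by 4.95 on the log2 scale, at 4.09 ± 0.28 in C57epi.1 and 5.47 ± 1.46 in Bm12.4, against 9.73 ± 0.15 in macrophages (SD, n = 4). Its difference had an SE of 0.35 (limma, adjusted p = 2.4e-11). Trim30d differed by -3.83 (SE 0.18), Trim12a by -3.64 (SE 0.38) and Trim12c by -2.92 (SE 0.22), with adjusted p of 9.33e-15, 1.89e-08 and 8.54e-11 (limma). The arrays of the lines lay below every macrophage array for all 4 of these genes, as for 15.4% of all genes. Trim21 was lower in the lines by 0.91 (adjusted p = 0.00195), with overlapping arrays and with -1.37 within replicates 1 and 2 and -0.46 within replicates 3 and 4. For Trim12a the difference was -4.44 within replicates 1 and 2 and -2.85 within replicates 3 and 4. With supernatant, the differences between the lines and macrophages were -0.37 for Trim30a, -0.82 for Trim12a, -0.54 for Trim12c, 0.34 for Trim21 and 0.02 for Trim25, none of which passed the test over 24 arrays (limma, adjusted p = 0.427, 0.0806, 0.0505, 0.245 and 0.943). In a model of the supernatant groups only, Trim30a, Trim12a, Trim12c and Trim21 passed (adjusted p = 0.00513, 8.6e-05, 0.00124 and 0.0224). Over 24 arrays Trim12a passed without Bm12.4 media replicate 1, 3 or 4 (adjusted p = 0.03 to 0.0463), and Trim12c without any of 7 arrays, which were C57epi.1 supernatant replicate 1 and media replicate 3, macrophage supernatant replicate 2 and all 4 Bm12.4 media arrays (adjusted p = 0.0127 to 0.0486). Trim30d was still lower by 1.06 (SE 0.18, limma, adjusted p = 2.11e-05), with all arrays of the lines below those of macrophages. For the cluster list as a whole, 3 genes were lower and 0 higher with supernatant, and the median difference was -0.54. The other two were Trim34a at -0.57, lost without Bm12.4 supernatant replicate 1 or macrophage supernatant replicate 1, 2 or 3 (adjusted p = 0.0511 to 0.074), and Trim6 at -0.49, lost without macrophage supernatant replicate 2 (adjusted p = 0.0827). Over all 58 members, 16 were higher and 15 lower then, against 24.3% and 24.4% of all genes.

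Some members separated the lines from macrophages in both conditions. Trim14 was lower in the lines by 4.65 in media and 3.87 with supernatant (SE 0.19 each, limma, adjusted p = 1.12e-15 and 3.64e-14). Trim29 had 4.41 to 4.87 in the supernatant arrays of the lines, against 7.92 to 8.33 in macrophages, and 4.16 to 4.80 in their media arrays, against 7.60 to 7.76. It differed by -3.56 with supernatant and by -3.23 in media (SE 0.11 each, limma, adjusted p = 3.35e-18 and 2.18e-17). Trim36 differed by -1.71 and -1.90, and Trim68, a ligase linked to androgen receptor activity in human cells, differed by -1.21 and -1.04 (limma, adjusted p = 8.59e-13, 1.21e-13, 7.24e-08 and 8.05e-07 in that order).

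The cofactors and growth genes ran higher in the lines. Of the 5 cofactors, 4 were higher in the lines in each condition, and of the 8 growth, stress and epithelial genes, 5 were higher and 1 lower in each. Over all genes 24.3% were higher and 24.4% lower with supernatant, and 24.7% and 22.4% in media. Trim32, a regulator on the signalling list and a ligase mutated in a human muscular dystrophy, had 8.94 to 9.28 in the supernatant arrays of the lines, against 5.95 to 6.20 in macrophages, and 9.10 to 9.35 in their media arrays, against 6.20 to 6.38. It was higher by 3.01 and by 2.96 (SE 0.072 each, limma, adjusted p = 2.97e-20 and 4.3e-20). Trim59 was higher by 3.43 with supernatant and 3.04 in media (SE 0.22 each, adjusted p = 3.18e-12 and 2.82e-11). Its Bm12.4 media arrays had 9.22, 8.91, 7.69 and 7.79, lower in the pair with low dividing-cell markers, and the media difference was 3.71 within replicates 1 and 2 and 2.37 within replicates 3 and 4. Macrophages, whose dividing-cell markers averaged 5.51 to 7.92, had 5.28 to 6.26 of Trim59 over both conditions. The part of cell division in these differences was not tested.

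Trim24 was higher in the lines by 3.04 with supernatant and 2.24 in media (SE 0.14 each, limma, adjusted p = 1.56e-14 and 4.78e-12). Trim47 was higher by 2.81 with supernatant and 1.58 in media (SE 0.085 each, adjusted p = 2.98e-18 and 1.7e-13). Trim2 was higher by 1.75 and by 1.67 (SE 0.13 each, adjusted p = 7.49e-11 and 1.74e-10). Trim28, the corepressor that silences retroelements through zinc finger proteins, was higher by 1.16 and by 1.09 (SE 0.12 each, adjusted p = 1.74e-08 and 4.76e-08). The Trim2 media difference was 1.23 within replicates 1 and 2 and 2.12 within replicates 3 and 4. None of the arrays of these 4 genes overlapped between the lines and macrophages in either condition, where 16.3% of all genes lay wholly higher in the lines with supernatant and 13.5% in media. Trim37 was higher by 1.05 and 0.77 (adjusted p = 0.000244 and 0.00463), and its media arrays of the lines split by replicate pair, with 9.45 to 9.53 in replicates 1 and 2 of both lines and 8.28 to 8.67 in replicates 3 and 4. The Trim37 media difference was 1.19 within the first pair and 0.35 within the other. Smaller steps toward the lines were 0.56 and 0.34 for Trim33 and 0.60 and 0.54 for Trim27, a cofactor of the same list (limma, adjusted p = 1.66e-06, 0.000848, 0.00391 and 0.00901). For Trim27 the media difference was 0.81 within replicates 1 and 2 and 0.27 within replicates 3 and 4. Trim16 was higher by 1.05 with supernatant and 0.56 in media, with overlapping arrays in both (adjusted p = 5.76e-09 and 5.62e-05). Trim44, a member without a RING, was higher by 0.18 with supernatant and 0.17 in media (adjusted p = 0.0346 and 0.0492). Leaving out any 1 of 5 arrays ended the supernatant call (adjusted p = 0.0513 to 0.146), and any 1 of 17 the media call (adjusted p = 0.0516 to 0.203). The media difference was 0.03 within replicates 1 and 2 and 0.30 within replicates 3 and 4.

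**Figure D5:**
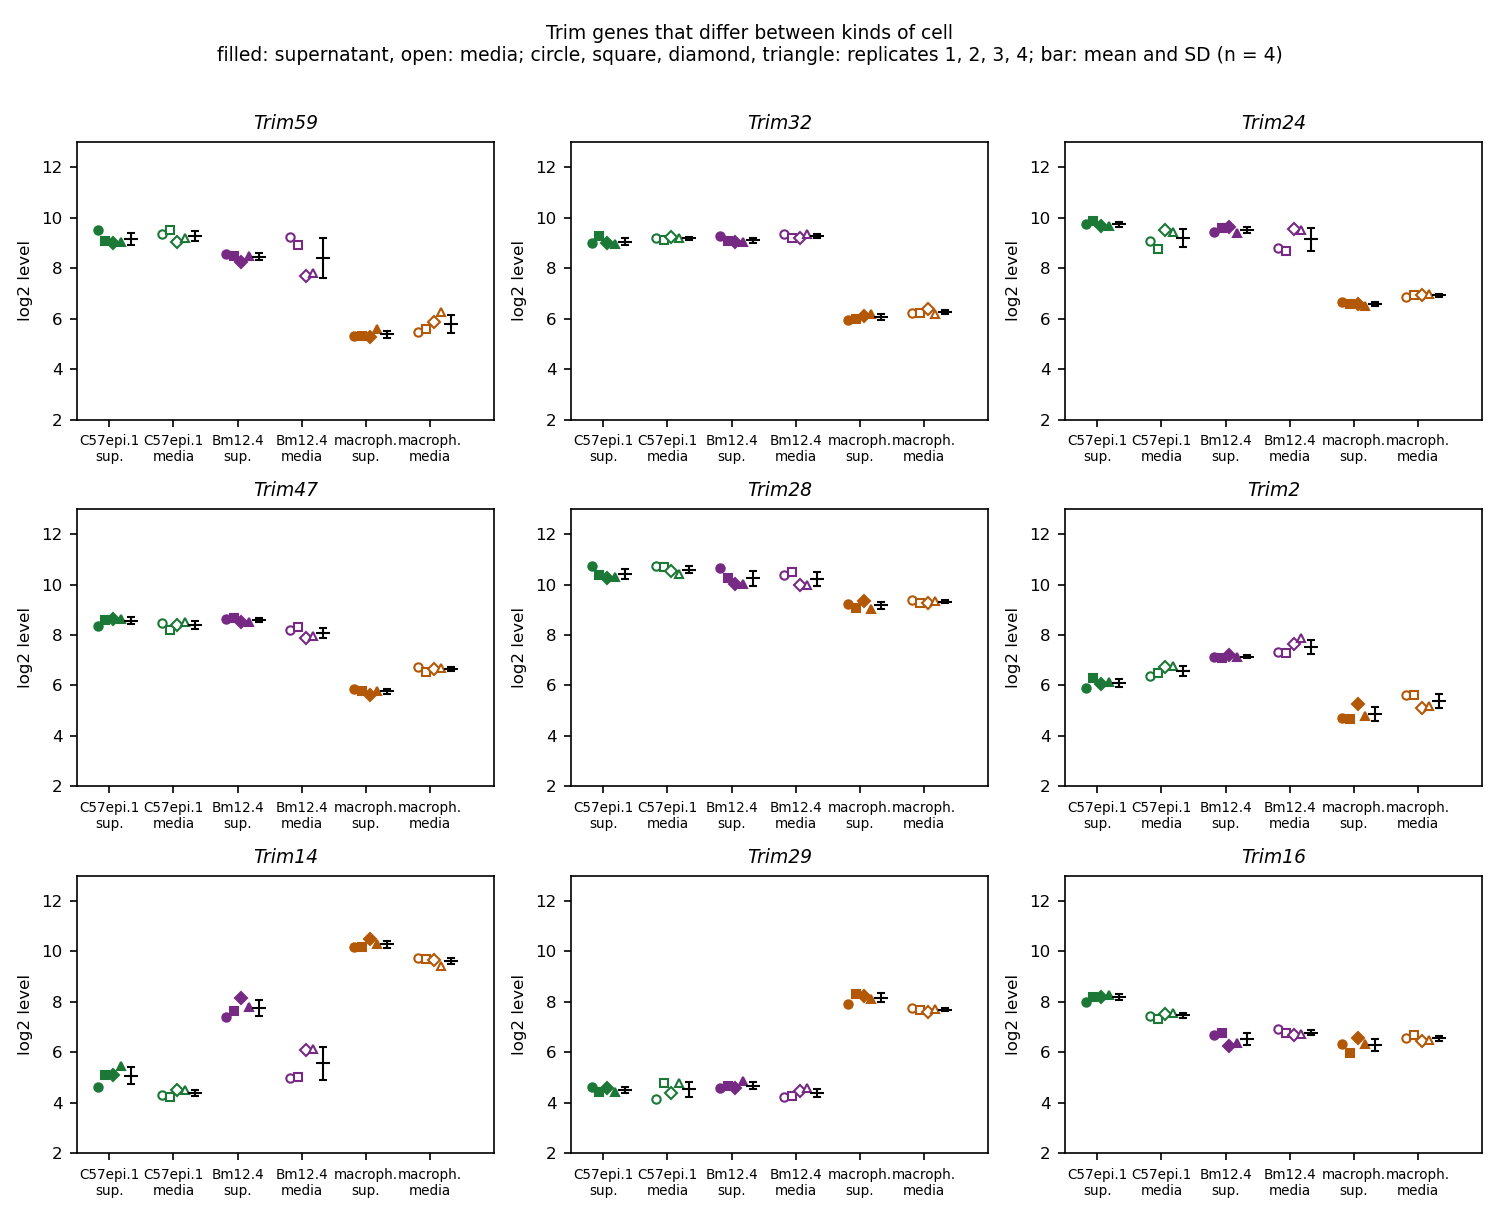
Log2 levels (y axis) of 9 Trim genes that differ between kinds of cell, by group (x axis), with each array as a point and the mean with its SD beside it. Trim59, Trim32, Trim24, Trim47, Trim28 and Trim2 sit higher in both lines, Trim14 and Trim29 higher in macrophages, and Trim16 highest in C57epi.1.

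Between the 2 lines in media, 11 members were higher and 13 lower in C57epi.1 than in Bm12.4, against 12.0% and 12.5% of all genes. Without Bm12.4 media replicate 3 or 4, 5 and 7 were higher. With supernatant 10 were higher and 12 lower, against 14.3% and 15.6%. In media, 6 of the 7 genes of the Trim5 cluster list were lower in C57epi.1, with a median of -1.38, and with supernatant 4 were, with a median of -0.77. Trim12a was lower in C57epi.1 by 1.58 with supernatant and 2.67 in media (SE 0.44 each, limma, adjusted p = 0.00725 and 4.97e-05), and its media difference was -1.56 within replicates 1 and 2 and -3.79 within replicates 3 and 4. Trim12c was lower by 1.70 and by 1.67 (SE 0.26 each, adjusted p = 1.39e-05 and 2.2e-05), and in media it differed by -0.94 within replicates 1 and 2 and -2.40 within replicates 3 and 4. Trim34a was lower with supernatant by 0.77 (adjusted p = 0.0184), a call lost without Bm12.4 supernatant replicate 3 (adjusted p = 0.0787). Trim6 measured 3.51 to 3.97 in C57epi.1 and 5.41 to 5.89 in Bm12.4 with supernatant, and 3.14 to 4.05 and 4.96 to 5.45 in media. It was lower in C57epi.1 by 1.88 and by 1.49 (SE 0.18 each, limma, adjusted p = 2.55e-08 and 1.05e-06), and no arrays overlapped. Its media difference was -1.82 within replicates 1 and 2 and -1.17 within replicates 3 and 4. Trim14 was lower by 2.68 with supernatant and 1.17 in media (SE 0.22 each, adjusted p = 1.81e-09 and 0.000278), with -0.72 and -1.62 within the media pairs, and Trim2 by 1.03 and 0.96 (SE 0.15 each, adjusted p = 1.08e-05 and 3.68e-05).

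Several media differences between the lines were larger within replicates 3 and 4 than within replicates 1 and 2. The calls of Trim30a and Trim59 rested on Bm12.4 media replicates 3 and 4. Trim30a was lower in C57epi.1 by 1.38 (SE 0.40, limma, adjusted p = 0.0136), with -0.33 within replicates 1 and 2 and -2.42 within replicates 3 and 4. Without Bm12.4 media replicate 3 or 4 it was not called (adjusted p = 0.0751 and 0.0747). Trim59 was higher by 0.87 (SE 0.25, adjusted p = 0.0123), with 0.36 and 1.36 within the pairs, and was lost without either too (adjusted p = 0.0677 and 0.0643). Trim13, a ligase of the endoplasmic reticulum, was higher by 1.01 (SE 0.29, adjusted p = 0.0128), with 0.21 and 1.80, and failed when C57epi.1 replicate 4 or else Bm12.4 replicate 3 was left out (adjusted p = 0.0551 and 0.0559). Trim21 was lower by 0.85 and Trim25 by 0.64 (adjusted p = 0.0214 and 0.00854). Within the pairs Trim21 differed by -0.42 and -1.27 and Trim25 by -0.30 and -0.97, and the Trim21 call was lost without C57epi.1 media replicate 1 or 2 or Bm12.4 media replicate 3 or 4 (adjusted p = 0.0585 to 0.109). Trim27 was higher by 0.53 and Trim30d lower by 0.57 (adjusted p = 0.0451 and 0.045), with 0.20 and 0.86 within the pairs for Trim27 and -0.16 and -0.98 for Trim30d. Leaving out 1 array ended these calls in 18 and 14 of 24 fits (adjusted p = 0.0513 to 0.198 and 0.0512 to 0.216). With the replicate number as a block over 24 arrays, although the labels state no pairing, Trim30d, Trim13 and Trim47 kept their calls (adjusted p = 0.0316, 0.0106 and 0.0284), Trim39 lost its call (adjusted p = 0.0532), and Trim28, at 0.38, and Trim23 gained one (adjusted p = 0.0109 and 0.0381). With the block in a model of the 2 media groups alone, Trim30d, Trim13 and Trim47 were not called (adjusted p = 0.0643, 0.0535 and 0.135), and Trim28 was (adjusted p = 0.0275). In a model of the 2 media groups without a block, Trim30a, Trim59, Trim13, Trim21, Trim25, Trim27 and Trim30d were all not called (adjusted p = 0.0859 to 0.235).

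Other differences between the lines held in both conditions. Trim16 was higher in C57epi.1 by 1.66 with supernatant and 0.68 in media (SE 0.12 each, limma, adjusted p = 1.06e-10 and 8.96e-05), with no overlap of arrays and with 0.54 and 0.82 within the media pairs. Trim36 was higher by 0.60 and 0.53 (SE 0.12 each, adjusted p = 0.000265 and 0.00127), with 0.90 and 0.31 within the supernatant pairs. Trim33 was higher by 0.65 and 0.51 (SE 0.09 each, adjusted p = 5.01e-06 and 0.000124). Trim39 was higher by 0.85 with supernatant and 0.35 in media (SE 0.13 each, adjusted p = 1.15e-05 and 0.049), and 18 of 24 fits without 1 array lost the media call (adjusted p = 0.0501 to 0.196), with 0.44 and 0.24 within the media pairs. With supernatant, Trim13 and Trim59 were higher by 0.94 and 0.72 (adjusted p = 0.0164 and 0.0311). The Trim13 call there failed when C57epi.1 replicate 1 or else Bm12.4 replicate 4 was left out (adjusted p = 0.0841 and 0.0672), and the Trim59 call when C57epi.1 replicate 1 or else Bm12.4 replicate 2, 3 or 4 was (adjusted p = 0.0532 to 0.11).

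By level, group means of members ran from 2.90 for Trim30d in C57epi.1 media to 12.04 for Trim30a in macrophages with supernatant, although levels of different probe sets cannot be ranked as amounts of RNA. Every group mean was under 5 for 19 members, and 23 reached 8 in at least 1 group. Trim25, Trim27, Trim28, Trim35 and Trim44 were at 8 or more in all 6 groups. Over the 24 arrays, Trim28, Trim35, Trim25, Trim30a and Trim44 averaged 9.99, 9.83, 9.80, 9.11 and 8.58, and Trim10, an erythroid member, Trim38 and Trim75 averaged 3.59, 3.51 and 3.07. The median over members was 5.82, next to 5.69 over all genes. For 23 members the 6 group means lay within 0.5 of one another. With supernatant 28 members were at 6 or more in each kind of cell, against 23 in C57epi.1, 22 in Bm12.4 cells and 28 in macrophages in media. Of all genes, 45.2%, 46.0% and 44.8% were at 6 or more with supernatant in C57epi.1, Bm12.4 and macrophages. In media the shares were 45.6%, 46.0% and 45.2%.

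Partner genes of the pathway also changed. Of 12 measured ubiquitin and Isg15 partners, 9 rose in C57epi.1, 5 in Bm12.4 cells and 6 in macrophages, against 8.85%, 4.54% and 6.13% of all genes. Usp18, the protease that removes Isg15, rose by 6.57 in C57epi.1, 5.09 in Bm12.4 cells and 3.52 in macrophages (limma, adjusted p = 7.62e-12, 8.35e-10 and 2.82e-07). Herc6, the mouse Isg15 ligase, rose by 5.40, 4.58 and 3.19 (adjusted p = 2.68e-14, 6.36e-13 and 3.7e-10). Both rose more in the lines than in macrophages, by 2.32 for Usp18 and 1.81 for Herc6 (limma, adjusted p = 0.00163 and 0.000104). For Usp18 the Bm12.4 rise was 6.17 within replicates 1 and 2 and 4.02 within replicates 3 and 4, and its excess in the lines was 3.15 and 1.48. Ube2l6, the conjugating enzyme for Isg15 and some Trim proteins, rose by 3.92, 3.26 and 2.84 (adjusted p = 4.17e-10, 1.22e-08 and 8.24e-08), with 3.92 and 2.59 within the Bm12.4 pairs. Rnf135, a ligase related to Trim25 that acts on RIG-I, rose by 1.50 in Bm12.4 cells and 0.70 in macrophages (adjusted p = 4.12e-05 and 0.0363), and differed by 0.29 in C57epi.1 (adjusted p = 0.439). Its response in C57epi.1 was smaller than in Bm12.4 by 1.22 on the log2 scale (limma, adjusted p = 0.0262).

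Of 15 measured antiviral signalling genes that Trim proteins act on, 7 rose and 2 fell in C57epi.1, 7 rose in Bm12.4 cells and 6 rose in macrophages, set against the same shares of all genes higher and 10.4% lower in C57epi.1. Ddx58, which encodes RIG-I, rose by 2.81, 2.19 and 2.73 in C57epi.1, Bm12.4 and macrophages (limma, adjusted p = 2.77e-08, 1.89e-06 and 4.02e-08), and its Bm12.4 rise was 2.81 and 1.57 within the pairs. Ifih1, which encodes Mda5, rose by 0.95, 2.96 and 2.34 (adjusted p = 0.0362, 4.31e-07 and 8.86e-06), and its response in C57epi.1 was smaller than in Bm12.4 by 2.01 (adjusted p = 0.0104). Within replicates 1 and 2 the Bm12.4 rise of Ifih1 was 3.92 and the response difference -2.88, and within replicates 3 and 4 they were 2.00 and -1.15. Irf7, a transcription factor of interferon genes, rose by 5.40, 4.05 and 5.40 (adjusted p = 2.47e-06, 0.000186 and 2.31e-06). Its Bm12.4 media arrays split by pair, at 6.69, 6.22, 9.95 and 10.30, and the rise was 5.73 within replicates 1 and 2 and 2.37 within replicates 3 and 4. Irf3 and Mavs were the 2 that fell in C57epi.1, by 0.29 and 0.46 (adjusted p = 0.00721 and 0.00122). Of 4 Trim family genes under other names, Pml, an interferon-induced nuclear body protein, rose in each kind, by 1.06, 0.87 and 1.70 (limma, adjusted p = 1.82e-07, 5.06e-06 and 7.6e-11), and Mid1, Mid2 and Mefv passed in none. Unlike 5 of the 7 genes of the Trim5 cluster list, Pml rose less in the lines than in macrophages. The shortfall was 0.73 on the log2 scale (limma, adjusted p = 0.000782), with differences of -0.52 and -0.94 within the pairs.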

How the data were processed

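Expression was measured on 24 whole-transcript arrays, 4 in each of 6 groups taken from the labels. The deposited values are log2 intensities that the authors processed by RMA, and the submitters' processing notes name GCOS, Partek 6.2 and RMA. No source used here gives their order or other versions. Array medians ran from 5 to 5.19, and no arrays were identical. With 4 arrays a group, their number limits the precision.

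Of 28853 probe sets, 21789 carried 1 symbol, 1621 several and 5443 none in the platform annotation, and the highest-mean probe set of each gene gave 19938 genes. All 58 Trim genes matched RefSeq by gene ID. One limma 3.58.1 model in R 4.3.3 was fitted over the 6 groups (18 residual degrees of freedom), with 9 two-sided comparisons and Benjamini-Hochberg adjustment over all genes, and was tested on simulated data. Calls needed an adjusted p under 0.05.

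Values are given by name for 32 members: those called with a treatment difference of at least 1 (log2), the 5 largest called differences each way in every other comparison, the 5 highest and 3 lowest by mean over 24 arrays, and a fixed list. Other members named with values were chosen after their values were seen. The members and lists were chosen with earlier results of these data known. Deviations from group means of same-numbered arrays correlated at 0.226 to 0.683 between Bm12.4 supernatant and media and at 0.512 to 0.625 between the lines in media. Correlations between arrays of different numbers were not computed, so these values do not show that the numbers pair the arrays. The ranges were 0.084 to 0.27 between the lines in supernatant, -0.143 to 0.396 between C57epi.1 supernatant and media, and -0.134 to 0.118 between macrophage groups. Alternatives were a filter on low genes, centring, a block, models of the compared groups, robust variances, averaged probe sets (no member has more than 1), pairs of replicates and leaving out each array. Promoters came from RefSeq, and the 12 members with none were not searched.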

Additional observations from a re-analysis of the deposited data

Results flagged for a closer look

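In 12 of 192 groups of 4 arrays of the named members, 1 array stood far from the other 3, and chance gives about 1 in 20. C57epi.1 supernatant replicate 1 was highest for Trim12a (8.96), Trim37 (9.06) and Trim59 (9.53) and lowest for Trim47 (8.35). In C57epi.1 media, replicate 1 was lowest for Trim34a (4.47) and replicate 3 for Trim36 (4.79). In Bm12.4, supernatant replicate 1 was lowest for Trim12a (9.66), supernatant replicate 3 highest for Trim34a (6.93) and media replicate 2 highest for Trim10 (3.85). In macrophages, supernatant replicate 4 was highest for Trim35 (10.21) and Trim59 (5.60), and media replicate 3 lowest for Trim36 (6.32).

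The supernatant response differed between kinds of cell for 12 members by a test of the difference itself (limma, adjusted p under 0.05). The lines' response exceeded that of macrophages by 4.58 for Trim30a, 2.83 for Trim12a, 2.77 for Trim30d, 2.39 for Trim12c, 1.26 for Trim21, 1.23 for Trim47 and 0.98 for Trim25. For Trim24, Trim26, Trim16 and Trim65 the excess was 0.80, 0.52, 0.49 and 0.40. The response of C57epi.1 minus that of Bm12.4 was 0.98 for Trim16, 0.47 for Trim26, -0.70 for Trim65 and -1.51 for Trim14.

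Among the 6 probe sets that carry a Trim symbol with others, 3 were higher with supernatant by more than 2-fold in at least 1 kind. No gene is named from them. Probe set 10566333 differed by 3.43 in C57epi.1, 3.56 in Bm12.4 cells and 1.35 in macrophages (limma, adjusted p = 2.98e-08, 1.69e-08 and 0.00443). Probe set 10601581 differed by 2.94, 3.88 and 1.28 in the same kinds (adjusted p = 2.45e-08, 2.17e-10 and 0.0015). Probe set 10566350 had 6.24, 6.18, 6.71 and 6.40 in macrophages with supernatant and 3.25, 3.60, 3.73 and 3.49 in media, a difference of 2.87 (adjusted p = 1.54e-14). It differed by 0.03 in C57epi.1 and 0.22 in Bm12.4, with no call (adjusted p = 0.919 and 0.315). Its response in the lines minus that in macrophages was -2.74 (limma, adjusted p = 3.61e-12). For 10566333 and 10601581 this was 2.14 and 2.13 (adjusted p = 0.000697 and 0.000115).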

How the results depend on the processing

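Of 9235 values of named members under the alternatives, 8906 kept their direction and side of the threshold, 238 lost a call, 90 gained one and 1 reversed. The reversal was Trim59 in Bm12.4 supernatant minus media, at -0.55 in replicates 1 and 2 (limma, adjusted p = 0.0489), against 0.63 in replicates 3 and 4 (adjusted p = 0.0131) and 0.04 over all arrays. Fits of a pair of replicates alone moved most counts. In replicates 1 and 2 alone, 2 members were lower with supernatant in C57epi.1, 2 in Bm12.4 cells and 5 in macrophages, and 7 higher in macrophages. Between the lines in media 4 were higher and 8 lower, and their responses differed for 1 each way. In replicates 3 and 4 alone, 7 were lower in C57epi.1 and 4 in Bm12.4, 1 response was smaller in the lines than in macrophages, and 8 were larger in C57epi.1 than in Bm12.4. In models of the compared groups, 6 fell in macrophages, 5 were higher and 8 lower in C57epi.1 than in Bm12.4 in media, and 1 response was larger in C57epi.1. With trended and robust variances that last count was also 1, without Trim26 (adjusted p = 0.0743). The shares of all genes called under the alternative fits are not given here. Counts from these fits, and from those without 1 array, therefore show only how the calls moved.

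Leaving out 1 array gave 12 to 17 rises and 1 to 6 falls in C57epi.1, 12 to 13 and 0 to 1 in Bm12.4 (1 without media replicate 1), and 9 to 12 and 1 to 4 in macrophages. Falls in C57epi.1 dropped to 2, 1 and 2 without supernatant replicate 3 or media replicate 3 or 4. Falls in macrophages dropped to 1 without supernatant replicate 1 or media replicate 1 or 2. Between the lines in media it gave 5 to 12 higher, with 5 and 7 without Bm12.4 media replicate 3 or 4, and 1 to 2 responses larger in C57epi.1. That last count was 1 without any of 9 arrays of the lines, which were C57epi.1 supernatant replicates 2 and 3, Bm12.4 supernatant replicates 2, 3 and 4, and media replicates 3 and 4 of both. With the replicate number as a block in a model of the 2 groups, an alternative chosen after seeing the data, 10 members were higher and 12 lower in C57epi.1 than in Bm12.4 in media, and no call changed in Bm12.4 treatment. The causes were not tested. The number of arrays, 4 a group, limits the precision.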
